A study of Mus musculus with 12 samples.

Results

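The cytochrome P450 genes of mouse inguinal white adipose tissue (iWAT) were followed from room temperature (RT) to 24 h of cold, with and without Atf4 in adipocytes. A gene was counted as a member where its symbol in the deposited table held Cyp, a family number, a subfamily letter or letters and a gene number, and 31 of the 14159 listed genes met that rule. Cyp51 has no subfamily letter and is given beside the members. Every listed gene had at least 1 read in each of the 12 libraries, so a P450 gene without a read in some library is not among the listed genes.

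The 4 groups were Atf4WT RT, Atf4WT cold, Atf4AKO RT and Atf4AKO cold, each with 3 libraries that the labels call biological replicates. Atf4AKO mice carried Atf4 fl/fl and Adipoq-Cre, a Cre recombinase under the adiponectin promoter that acts in adipocytes and leaves Atf4 intact in the other cells of the tissue. Atf4WT mice were Atf4 fl/fl littermates, and both genotypes were on a C57BL/6 background. The age of the animals used for sequencing was not given in the sources used here. PolyA RNA of the whole tissue was sequenced with a strand-specific kit, and 25719476 to 29105147 reads per library fell on listed genes. Values are normalized counts, that is, reads per gene divided by a size factor for the library. In such bulk tissue, fewer cells of a type and less RNA per cell cannot be told apart.

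P450 enzymes are heme proteins that insert oxygen into lipids, steroids, retinoids and foreign compounds, using electrons from P450 oxidoreductase at the endoplasmic reticulum or from ferredoxin in mitochondria. The CYP1, CYP2 and CYP3 families are best known for drugs and other foreign compounds, the CYP4 family for hydroxylating the far end of fatty acids, and smaller families for sterols, bile acids, steroid hormones and retinoic acid. Many of these genes are controlled by ligand-activated transcription factors, such as the aryl hydrocarbon receptor for Cyp1a1 and the constitutive androstane receptor (Nr1i3) for Cyp2b10.

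Atf4, the deleted transcription factor, was examined first as a check of the labels. It stood at 5669, 4670 and 4107 normalized counts in Atf4WT RT, at 7644, 7511 and 5756 in Atf4WT cold, at 1594, 1470 and 1639 in Atf4AKO RT and at 1578, 788 and 1180 in Atf4AKO cold. All 6 Atf4AKO libraries lay below all 6 Atf4WT libraries. The log2 difference of Atf4AKO from Atf4WT was −2.60 ± 0.22 (SE) in the cold with a limma adjusted p of 0.000644, and −1.61 ± 0.22 at RT with 0.0762, over the adjusted threshold, although the unadjusted p was 1.19e-05. Ucp1, the uncoupling protein of thermogenic adipocytes, averaged 443 ± 241 (SD, n = 3) normalized counts in Atf4WT RT and 81029 ± 11913 in Atf4WT cold, and 612 ± 426 in Atf4AKO RT and 97153 ± 20017 in Atf4AKO cold. Its log2 fold change in cold was 7.67 ± 0.47 (SE) in Atf4WT and 7.51 ± 0.47 in Atf4AKO, with limma adjusted p of 1.32e-05 and 8.69e-06. All 7 white adipocyte markers were listed, with Fabp4 the most abundant at a mean of 452765 normalized counts, and 6 of 6 thermogenic markers rose in the cold in both genotypes. Of the white adipocyte markers only Adipoq was called, lower in Atf4WT cold (−0.60, limma adjusted p of 0.0148).

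Cyp2e1, which oxidizes ethanol, acetone and other small molecules and is best known from liver, dominated the family. Its normalized counts were 92801, 73883 and 69219 in Atf4WT RT, 81342, 101643 and 68732 in Atf4WT cold, 61693, 141448 and 110505 in Atf4AKO RT, and 89285, 100892 and 122106 in Atf4AKO cold. The libraries of all 4 groups overlapped, and the highest and the lowest of the 12 values both came from Atf4AKO RT. Per kb of annotated exon its mean level was 43001 normalized counts, and it made up 85.2% of the summed level per kb of the 31 members on average, from 81.9% to 89.1% in single libraries. Its cold log2 fold change was 0.087 ± 0.29 (SE) in Atf4WT and 0.063 ± 0.29 in Atf4AKO, with limma adjusted p of 0.844 and 0.889, and the sign of both turned when single libraries were left out, to −0.061 without Atf4WT cold replicate 1, −0.28 without Atf4AKO RT replicate 0 and −0.058 without Atf4AKO cold replicate 2.

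Cyp2f2, known for oxidizing naphthalene in airway cells, ranked next in every library, at a mean of 3240 normalized counts per kb. Its normalized counts ran from 4359 to 6581 in Atf4WT RT, 5195 to 10132 in Atf4WT cold, 4572 to 8695 in Atf4AKO RT and 4908 to 11696 in Atf4AKO cold, and these ranges overlapped. Cyp4b1, a hydroxylase of fatty acids and of some furans, followed at 845 per kb, then Cyp4v3 at 468, Cyp2d22 at 429 and Cyp27a1 at 410. The order of those last genes should be read loosely, because their libraries overlapped on the per kb scale. At the low end, Cyp2c23 and Cyp17a1 averaged 4.11 and 3.13 normalized counts and were not tested. The plot of levels per kb shows that the members span more than 4 powers of 10.

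**Figure D1:**
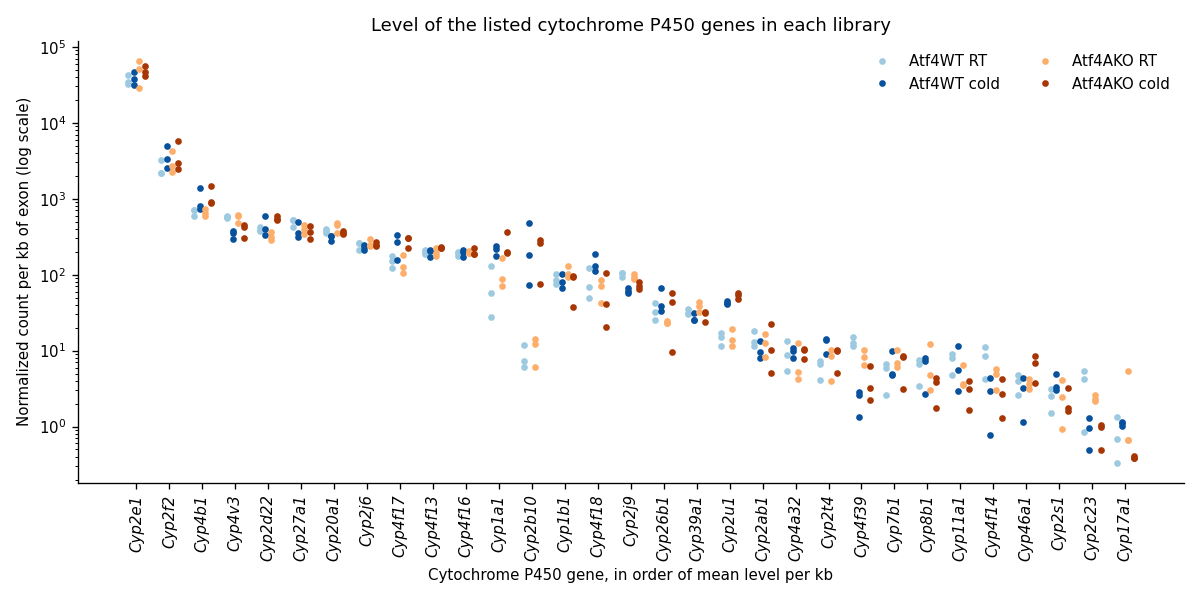
Normalized count per kb of exon (log axis) of the 31 listed cytochrome P450 genes in the order of their mean, 1 point per library, coloured by group. Cyp2e1 stands above every other member in all 12 libraries, and among genes above 20 normalized counts per kb Cyp2b10 and Cyp2u1 show the widest gaps between all RT and all cold libraries.

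Cold was compared with RT within each genotype to ask how the family moves as white fat becomes thermogenic. Differences were tested with limma on log2(normalized count + 1) over the 13404 genes, 29 members among them, with a mean of at least 10. A gene is called, and is said to have risen or fallen, at a Benjamini-Hochberg adjusted p under 0.05, and fold changes are on that log2 scale, which understates changes of low genes. In Atf4WT, 6 of 29 members were called against 31.9% of all tested genes. The genes Cyp2b10, Cyp2u1 and Cyp1a1 rose, where 17% of all tested genes rose, and Cyp4v3, Cyp2j9 and Cyp4f39 fell, where 14.9% fell. In Atf4AKO, 6 of 29 members were called against 25.9% of all tested genes. Here Cyp2b10, Cyp2u1, Cyp4f17 and Cyp2d22 rose, against 14.8% of all tested genes, and Cyp4v3 and Cyp2j9 fell, against 11%. Cyp2b10, Cyp2u1, Cyp4v3 and Cyp2j9 were called in both genotypes, 8 members in either and 21 in neither, beside 2639, 5101 and 8303 of all 13404 tested genes.

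At the DEG threshold of the study, a fold over 1.5 with an unadjusted p under 0.05, 9 members passed in Atf4WT, where 21.2% of all tested genes did, and 7 in Atf4AKO, where 17.2% did. The median cold log2 fold change of the 29 members was 0.0081 in Atf4WT and −0.036 in Atf4AKO, beside 0.0026 and −0.032 over all tested genes. The share of members was thus below that of all tested genes by adjusted p and above it at the DEG threshold, in both genotypes. With 29 members these shares rest on few genes, and their difference from all tested genes was not tested. The cold calls in Atf4AKO dropped from 6 to 3 without Atf4AKO RT replicate 0 and to 3 without Atf4AKO RT replicate 1. Calls over all tested genes dropped as well, from 3467 to a lowest of 2208 with single libraries left out.

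Markers of stromal cells, macrophages and endothelium were set beside the members that fell. Summed progenitor and stroma markers averaged 58730 ± 7768 (SD, n = 3) normalized counts in Atf4WT RT and 30210 ± 14310 in Atf4WT cold, and 59770 ± 14000 in Atf4AKO RT and 27550 ± 14160 in Atf4AKO cold. Their median log2 fold change was −0.81 in Atf4WT, where 0 of 6 were called, and −0.94 in Atf4AKO, where only Col1a1 fell. Col1a1 had −1.72 in Atf4AKO with a limma adjusted p of 0.0352, −1.49 in Atf4WT with 0.0522 and a difference of −0.23 with 0.999. The median of the macrophage markers was −0.94 and −0.96, with 0 of 5 called. Of 5 endothelium markers 1 fell in Atf4WT and 0 were called in Atf4AKO, with median log2 fold changes of −0.17 and −0.021. The part of these cells in the values of Cyp4v3, Cyp2j9 and Cyp4f39 was not tested.

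**Figure D2:**
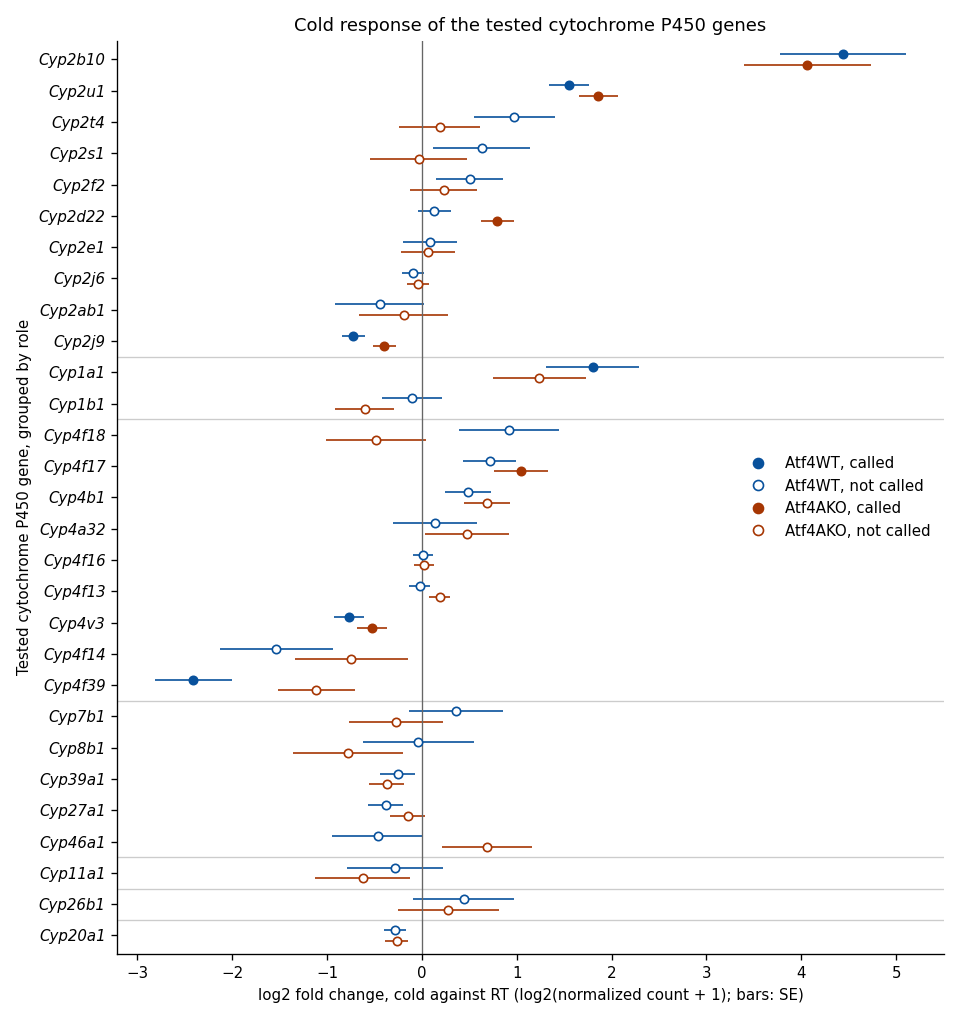
Cold against RT log2 fold change (log2(normalized count + 1), bars SE) of the 29 tested members in Atf4WT (blue) and Atf4AKO (brown), grouped by role, filled where called. Cyp2b10 lies far to the right in both genotypes at 4.44 and 4.07, and most other members lie close to 0.

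The RefSeq windows of 300 bases around a gene start (build GRCm38.p6) are shown for Cyp2b10 (chr7:25897408-25897707, + strand), Cyp1a1 (chr9:57697363-57697662, + strand), Cyp4v3 (chr8:45333114-45333413, − strand) and Cyp2j9 (chr4:96591436-96591735, − strand), members described in full that rose or fell in the cold and that hold the letters GCGTG on either strand. Cyp4f39, a low gene that fell in Atf4WT, also holds them and is not shown. Each window runs from before to just after a RefSeq gene start, 5′ to 3′ on the strand of the gene; the Cyp1a1 window lies inside the gene as GENCODE draws it, which begins further upstream, and capitals mark GCGTG, the core of the aryl hydrocarbon response element, or its reverse complement.
Cyp2b10 promoter: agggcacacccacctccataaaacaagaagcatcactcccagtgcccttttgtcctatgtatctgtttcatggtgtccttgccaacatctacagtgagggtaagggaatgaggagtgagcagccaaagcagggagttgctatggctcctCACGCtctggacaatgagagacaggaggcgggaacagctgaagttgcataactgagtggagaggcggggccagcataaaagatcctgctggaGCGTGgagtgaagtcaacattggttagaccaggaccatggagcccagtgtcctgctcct
Cyp1a1 promoter: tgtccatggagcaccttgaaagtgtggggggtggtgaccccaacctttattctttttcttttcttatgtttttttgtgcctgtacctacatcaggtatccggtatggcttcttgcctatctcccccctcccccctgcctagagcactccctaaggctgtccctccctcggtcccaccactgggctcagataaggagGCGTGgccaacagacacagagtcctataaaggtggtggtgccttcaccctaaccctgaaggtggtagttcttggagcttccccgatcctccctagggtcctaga
Cyp4v3 promoter: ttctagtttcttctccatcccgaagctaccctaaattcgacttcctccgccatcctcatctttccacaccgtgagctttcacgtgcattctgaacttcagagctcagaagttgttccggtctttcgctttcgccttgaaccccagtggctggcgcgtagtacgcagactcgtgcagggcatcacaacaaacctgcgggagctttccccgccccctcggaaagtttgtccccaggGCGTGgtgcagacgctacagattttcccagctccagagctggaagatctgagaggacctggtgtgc
Cyp2j9 promoter: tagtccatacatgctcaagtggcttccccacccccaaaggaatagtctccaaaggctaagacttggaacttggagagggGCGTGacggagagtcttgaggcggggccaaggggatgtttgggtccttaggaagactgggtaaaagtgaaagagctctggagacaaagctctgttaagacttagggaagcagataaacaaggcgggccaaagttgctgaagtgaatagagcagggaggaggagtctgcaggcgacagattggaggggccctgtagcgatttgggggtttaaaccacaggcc
The Cyp2b10 window held 2 matches that did not overlap, and the windows of Cyp1a1, Cyp4v3 and Cyp2j9 held 1 each. GCGTG was present in 32.4% of all 32851 RefSeq windows of that length. Of the 31 members, 24 had a window, with 28 windows in all, and 11 of these 28 windows, of 11 genes, held GCGTG. The cAMP response element TGACGTCA was in none of the 28 windows and in 1.79% of all windows, and TGATGNAA, the core of the C/EBP-ATF response element, was in none of the 28 and in 3.97% of all. Both strands were searched, and a match or its lack describes only the letters of the window. The members Cyp2c23, Cyp2d22, Cyp17a1, Cyp2u1, Cyp4f17, Cyp39a1 and Cyp7b1 had no entry.

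In the CYP2 family, Cyp2b10 (NM_009999, chr7:25897620-25926624, GENCODE M21), which oxidizes drugs and steroids, changed most. It stood at 24.8, 15.4 and 13.0 normalized counts in Atf4WT RT and at 155, 1019 and 380 in Atf4WT cold. It stood at 13.0, 29.9 and 26.0 in Atf4AKO RT and at 162, 553 and 607 in Atf4AKO cold. Every cold library was above every RT library, while the cold libraries differed widely among themselves, with replicate 0 the lowest in both genotypes. The mean rose 29.2-fold in Atf4WT and 19.2-fold in Atf4AKO, the former resting in part on Atf4WT cold replicate 1. The log2 fold changes were 4.44 ± 0.67 (SE) and 4.07 ± 0.67, with limma adjusted p of 0.000859 and 0.00166. With single libraries left out they ran from 3.75 to 5.11 and from 3.72 to 4.68. The call held under all 23 other settings in both genotypes.

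Cyp2u1 (NM_027816, chr3:131288441-131303227), which hydroxylates arachidonic acid and other long-chain fatty acids, stood at 79.9, 89.5 and 61.2 normalized counts in Atf4WT RT and at 222, 234 and 218 in Atf4WT cold. It stood at 72.5, 103 and 60.3 in Atf4AKO RT and at 254, 305 and 285 in Atf4AKO cold. RT and cold libraries were well apart, the 3 cold libraries of each genotype lay close together, and all Atf4AKO cold values lay above all Atf4WT cold values. The cold log2 fold change was 1.55 ± 0.21 (SE) in Atf4WT and 1.86 ± 0.21 in Atf4AKO, with limma adjusted p of 0.000475 and 0.000195, and the difference between both responses was 0.31 ± 0.29 (0.14 to 0.52 with single libraries left out) with adjusted p of 0.996. The antisense gene 4930534D22Rik overlaps Cyp2u1, and the strand setting of the counting was not given in the sources used here, so reads of the pair may have been mixed.

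Cyp2d22, a relative of the human drug-metabolizing CYP2D6, stood at 1481, 1503 and 1636 normalized counts in Atf4WT RT and at 1569, 2308 and 1319 in Atf4WT cold. It stood at 1102, 1243 and 1439 in Atf4AKO RT and at 2340, 2053 and 2145 in Atf4AKO cold. Cold and RT libraries overlapped in Atf4WT, where Atf4WT cold replicate 1 stood out, and were apart in Atf4AKO. Cyp2d22 rose in Atf4AKO by 0.79 ± 0.17 (SE) on the log2 scale with a limma adjusted p of 0.00689, and had 0.13 ± 0.17 in Atf4WT with adjusted p of 0.59. The difference of both cold responses was 0.66 ± 0.24, which passed the DEG threshold with p of 0.0193 unadjusted in limma but had an adjusted p of 0.564. Without Atf4WT cold replicate 1 the Atf4WT value was −0.097.

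Cyp2j9, of the CYP2J subfamily that oxidizes arachidonic acid, went the other way (NM_028979, chr4:96568429-96591578). It stood at 352, 352 and 315 normalized counts in Atf4WT RT and 205, 222 and 189 in Atf4WT cold, and at 313, 346 and 293 in Atf4AKO RT and 239, 217 and 268 in Atf4AKO cold. In both genotypes every cold library was below every RT library. Its log2 fold change was −0.72 ± 0.12 (SE) in Atf4WT and −0.40 ± 0.12 in Atf4AKO, with limma adjusted p of 0.00174 and 0.0362. The Atf4AKO call was lost when single libraries were left out, namely Atf4WT RT replicate 0 (−0.40, adjusted p of 0.0522), Atf4WT RT replicate 1 (−0.40, 0.0508), Atf4AKO RT replicate 0 (−0.40, 0.0879), Atf4AKO RT replicate 1 (−0.33, 0.116), Atf4AKO cold replicate 0 (−0.39, 0.0721) and Atf4AKO cold replicate 1 (−0.32, 0.126). It was also lost with a model of the compared groups alone (−0.40, adjusted p of 0.0935) and in alternatives added after the data were seen, without both cold replicates 1 (−0.32, 0.132) or the libraries richest in muscle markers (−0.32, 0.162), in a range of 0.016 to 0.162 over all alternatives. Its neighbour and close relative Cyp2j6 was not called and had −0.094 and −0.045. Close relatives such as these share sequence, and only uniquely mapped reads were counted, so their split is less certain than for single genes.

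The other tested members of the CYP2 family were Cyp2e1, Cyp2f2, Cyp2t4, Cyp2s1 and Cyp2ab1, and none was called in either genotype. The cold log2 fold change of Cyp2f2 was 0.50 ± 0.35 (SE) in Atf4WT and 0.23 ± 0.35 in Atf4AKO, with limma adjusted p of 0.298 and 0.664, and an antisense gene, Gm15883, overlaps it. Cyp2t4, Cyp2s1 and Cyp2ab1 averaged 14.1, 13.4 and 38.9 normalized counts. No gene of the CYP3 family was among the listed genes.

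In the CYP1 family, Cyp1a1 (NM_009992, chr9:57687928-57703824), the classical target of the aryl hydrocarbon receptor, stood at 365, 158 and 77.9 normalized counts in Atf4WT RT and at 485, 607 and 655 in Atf4WT cold. It stood at 200, 461 and 247 in Atf4AKO RT and at 531, 557 and 1014 in Atf4AKO cold. Cold libraries were above RT libraries in both genotypes, and RT libraries were widely spread. The log2 fold change was 1.80 ± 0.49 (SE) in Atf4WT with a limma adjusted p of 0.0171, and 1.24 ± 0.49 in Atf4AKO with 0.0845, and the difference between both was −0.56 ± 0.69 (−1.13 to −0.026 with single libraries left out) with adjusted p of 0.996. The Atf4WT call was narrowly lost without Atf4WT RT replicate 1 (1.77, adjusted p of 0.0503), Atf4WT RT replicate 2 (1.26, 0.0509) or Atf4WT cold replicate 2 (1.71, 0.0524), and also in alternatives added after the data were seen, without both cold replicates 1 (1.77, 0.0521) and without the libraries richest in muscle markers (1.39, 0.0605), in a range of 0.00406 to 0.0605 over all alternatives. The Atf4AKO value was called with DESeq2 (1.21, adjusted p of 0.0348) and without Atf4WT RT replicate 0 (1.24, 0.0364) or Atf4WT RT replicate 2 (1.24, 0.0376), in a range of 0.0348 to 0.244.

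Cyp1b1, which metabolizes estrogens and polycyclic aromatic compounds, was not called, with −0.10 ± 0.32 (SE) in Atf4WT and −0.61 ± 0.32 in Atf4AKO. Its normalized counts were 474, 385 and 599 in Atf4WT cold and 558, 222 and 551 in Atf4AKO cold, so that Atf4AKO cold replicate 1 was far below its group. Without it the Atf4AKO log2 fold change was −0.17. That library also had the lowest summed macrophage markers, 3619 normalized counts against 10680 to 30137 elsewhere, and the lowest summed progenitor and stroma markers, 11794 against 14592 to 73040. Of 6 macrophage markers 5 were listed, without Cd68 and with Lyz2 the most abundant, and of the stroma markers 6 of 6, led by Dcn. Their part in the Cyp1b1 values was not tested.

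**Figure D3:**
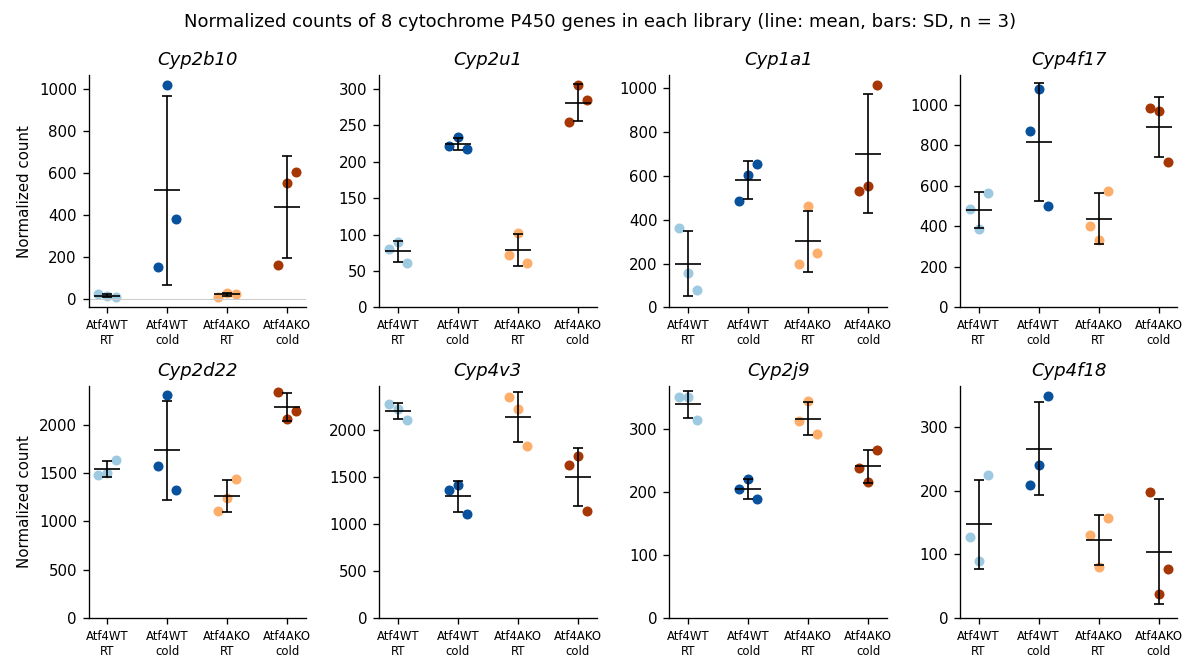
Normalized counts of 8 members in each library (points), with group mean (line) and SD (bars, n = 3), on linear axes from 0 or just below. The top row and Cyp2d22 in Atf4AKO are higher in cold, Cyp4v3 and Cyp2j9 are lower in cold in both genotypes, and Cyp4f18 is lower in Atf4AKO cold than in Atf4WT cold.

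In the CYP4 family, Cyp4v3 (NM_133969, chr8:45304944-45333216), the mouse counterpart of the fatty acid hydroxylase gene mutated in Bietti crystalline dystrophy, stood at 2273, 2218 and 2108 normalized counts in Atf4WT RT and at 1362, 1415 and 1111 in Atf4WT cold. It stood at 2355, 2221 and 1835 in Atf4AKO RT and at 1631, 1721 and 1144 in Atf4AKO cold. All cold libraries were below all RT libraries. The log2 fold change was −0.77 ± 0.15 (SE) in Atf4WT and −0.53 ± 0.15 in Atf4AKO, with limma adjusted p of 0.00403 and 0.0286, and the difference between both was 0.24 ± 0.22 with adjusted p of 0.996. In Atf4AKO the call was lost with a model of the compared groups alone (−0.53, adjusted p of 0.0714) and without Atf4AKO RT replicate 0 (−0.45, 0.105), Atf4AKO RT replicate 1 (−0.49, 0.0794) or Atf4AKO cold replicate 2 (−0.34, 0.083), in a range of 0.00323 to 0.105 over all alternatives. The gene Gm45753 is annotated across Cyp4v3 on the same strand.

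Cyp4f17, of the CYP4F subfamily that hydroxylates fatty acids and leukotrienes, stood at 486, 388 and 567 normalized counts in Atf4WT RT and at 872, 1078 and 502 in Atf4WT cold. It stood at 403, 335 and 577 in Atf4AKO RT and at 986, 969 and 718 in Atf4AKO cold. Atf4WT cold replicate 2 fell within the range of its RT libraries, whereas in Atf4AKO cold and RT did not overlap. Cyp4f17 rose in Atf4AKO by 1.04 ± 0.28 (SE) with a limma adjusted p of 0.02, and had 0.71 ± 0.28 in Atf4WT with 0.0749; the difference between both was 0.33 ± 0.40 (0.016 to 0.57 with single libraries left out) with adjusted p of 0.996. The Atf4AKO call was lost without Atf4AKO RT replicate 0 (1.00, adjusted p of 0.0646), Atf4AKO RT replicate 1 (0.87, 0.0716), Atf4AKO cold replicate 0 (0.96, 0.0559) or Atf4AKO cold replicate 1 (0.98, 0.0642), and without the libraries richest in muscle markers (0.98, 0.0756). The Atf4WT value was called without Atf4WT cold replicate 2 (1.03, adjusted p of 0.0139) and with DESeq2 (0.77, 0.0243). Adjusted p ranged from 0.00237 to 0.0756 over the alternatives in Atf4AKO and from 0.0139 to 0.255 in Atf4WT.

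Cyp4b1 had higher normalized counts in all cold than in all RT libraries of each genotype, with 1328, 1604 and 1596 in Atf4WT RT, 1820, 3121 and 1631 in Atf4WT cold, 1332, 1460 and 1648 in Atf4AKO RT and 1998, 3306 and 2019 in Atf4AKO cold. Cold replicate 1 was the highest library in both genotypes. The log2 fold change was 0.48 ± 0.24 (SE) in Atf4WT and 0.69 ± 0.24 in Atf4AKO, with limma adjusted p of 0.152 and 0.0592, so neither was called. With single libraries left out these values ran from 0.20 to 0.66 and from 0.45 to 0.81. The Atf4AKO value was called in 5 of 23 other settings, among them with DESeq2 (0.72, adjusted p of 0.0201), without both cold replicates 1 (0.45, 0.0332), and without Atf4WT cold replicate 1 (0.69, adjusted p of 0.021) or Atf4WT cold replicate 2 (0.69, 0.0496), in a range of 0.0201 to 0.223 over all alternatives.

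Cyp4f39, the counterpart of the human gene for the hydroxylase of very long fatty acids in skin ceramides, was singled out after its values were seen. Its mean was 19.7 normalized counts, with 43.2, 32.7 and 36.2 in Atf4WT RT, 8.22, 7.39 and 3.77 in Atf4WT cold, 28.8, 23.9 and 18.6 in Atf4AKO RT and 18.1, 9.07 and 6.45 in Atf4AKO cold. Cold libraries were far below RT in Atf4WT, while in Atf4AKO the highest cold value, 18.1, was next to the lowest RT value, 18.6. It fell in Atf4WT, with a log2 fold change of −2.41 ± 0.41 (SE) and a limma adjusted p of 0.00167, had −1.11 ± 0.41 in Atf4AKO with 0.0656, and the difference between both, 1.30 ± 0.58, passed the DEG threshold with an unadjusted limma p of 0.0457 and an adjusted p of 0.702. In Atf4AKO it was called in 2 of the other settings that tested it. The alternative with a higher filter on the mean left it out. Among these 2 was the setting without Atf4AKO cold replicate 0 (−1.49, adjusted p of 0.0219, in a range of 0.0219 to 0.194). Epithelial markers gave little to set beside Cyp4f39, since of 6 only Cdh1 was listed, at 18.4 normalized counts. The remaining CYP4 members Cyp4f13, Cyp4f16, Cyp4f14 and Cyp4a32 were not called, with log2 fold changes from −1.54 for Cyp4f14 in Atf4WT to 0.47 for Cyp4a32 in Atf4AKO. Cyp4f14, which the higher filter on the mean also left out, was called in Atf4WT in 2 of the other settings that tested it. Among these was the setting without both cold replicates 1 (−1.95, limma adjusted p of 0.0493, in a range of 0.0444 to 0.236). The Cyp4f genes on chromosome 17 are near relatives, so the reserve about shared sequence holds for them also.

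Among the 5 sterol and bile acid enzymes none was called. Cyp27a1, the mitochondrial hydroxylase of the sterol side chain, had normalized counts of 1071 ± 126 (SD, n = 3) in Atf4WT RT, 833 ± 199 in Atf4WT cold, 871 ± 112 in Atf4AKO RT and 790 ± 157 in Atf4AKO cold, and its libraries overlapped. It was called in Atf4WT without Atf4WT cold replicate 0 (−0.57, limma adjusted p of 0.0352) and without the libraries richest in muscle markers (−0.51, 0.0484), beside −0.38 with 0.14 in all libraries, in a range of 0.0352 to 0.39 over all alternatives. Cyp39a1, an oxysterol hydroxylase, averaged 97.2 and had cold log2 fold changes of −0.26 and −0.37, while Cyp7b1, Cyp8b1 and Cyp46a1 averaged 14.0, 10.7 and 13.7. Cyp26b1, which breaks down retinoic acid, had 0.44 ± 0.53 (SE) and 0.28 ± 0.53, and Atf4AKO cold replicate 1 was again the lowest library at 52.2 beside 304 and 233 in its group. Without that library Cyp26b1 was called in Atf4AKO (1.05, limma adjusted p of 0.0344, in a range of 0.0279 to 0.988 over all alternatives). The sign turned without Atf4AKO cold replicate 0 (−0.21) or Atf4AKO cold replicate 2 (−0.015), neither of them called. Cyp11a1, which starts steroid synthesis from cholesterol, averaged 25.7, with −0.28 and −0.62. Cyp20a1, a member without a known substrate, had −0.29 ± 0.12 and −0.27 ± 0.12, with limma adjusted p of 0.0858 and 0.118, and was called in 2 of 23 other settings in each genotype. The vitamin D enzymes Cyp2r1, Cyp27b1 and Cyp24a1 were not among the listed genes, although Cyp27a1 can also act on vitamin D.

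Atf4AKO was then compared with Atf4WT in the cold, the central contrast of the study, and at RT. No member was called in either comparison by limma, edgeR or DESeq2. The paper's NanoString panel, run after a longer cold exposure, lists Cyp1a1 as higher in Atf4AKO than in Atf4WT. That list rests on a fold threshold and a p-value that the paper does not call adjusted. Here the log2 difference of Cyp1a1 in the cold was 0.21 ± 0.49 (SE), with a limma p of 0.672 unadjusted and 0.903 adjusted. In the cold 4 genes, 0.0298% of all tested, were called, namely Atf4, Rps19bp1, Atf5 and Dnase1l3, which are named after their values were seen. At RT 1 gene was called, Rps19bp1, or 0.00746%. At an unadjusted limma p under 0.05, 2 members passed in the cold and 0 at RT, beside 1571 and 205 of all 13404 tested genes. The DEG threshold was passed by 2 members in the cold, where 6.40% of all tested genes passed, and by 0 at RT, where 0.463% did. The difference of the cold responses gave 0 called members by limma, edgeR and DESeq2 and 0 called genes (0%) in limma. There 2 members, Cyp2d22 and Cyp4f39, passed an unadjusted p under 0.05, as did 928 of all tested genes, and the DEG threshold, which 4.63% of all tested genes passed.

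Cyp4f18, which hydroxylates leukotriene B4 in leukocytes, was the member furthest apart between genotypes in the cold. Its normalized counts were 127, 90.5 and 224 in Atf4WT RT, 209, 241 and 348 in Atf4WT cold, 130, 79.7 and 158 in Atf4AKO RT and 198, 38.5 and 77.4 in Atf4AKO cold. The 3 Atf4AKO cold libraries lay below the 3 Atf4WT cold libraries, with Atf4AKO cold replicate 0 close to them, and the RT groups overlapped. The log2 difference in the cold was −1.61 ± 0.53 (SE), with an unadjusted p of 0.0105 and a limma adjusted p of 0.207, in a range of 0.0518 to 0.749 over all alternatives. With single libraries left out the log2 difference ran from −2.23 to −1.06. The cold log2 fold change was 0.92 ± 0.53 in Atf4WT and −0.48 ± 0.53 in Atf4AKO, neither called, with a difference of −1.40 ± 0.74 (−2.01 to −0.85 with single libraries left out) and an adjusted p of 0.833. Without Atf4AKO cold replicate 1 the Atf4AKO value turned to 0.070. The Atf4WT value was called in 1 alternative added after the data were seen, without the libraries richest in muscle markers (1.43, adjusted p of 0.049, in a range of 0.049 to 0.47). Zfp961 overlaps the gene on the opposite strand.

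Lymphocyte and macrophage markers were set beside Cyp4f18, since leukocytes are known to express it. The 7 listed of 8 B cell markers, without Fcer2a and with Cd79a the most abundant, summed to 99.2, 84.7 and 3073 normalized counts in Atf4WT RT, 3017, 6350 and 10464 in Atf4WT cold, 381, 68.7 and 151 in Atf4AKO RT and 261, 66.9 and 70.9 in Atf4AKO cold. The 8 listed of 8 T cell markers, led by Lck, summed to 223, 146 and 612 in Atf4WT RT, 821, 5443 and 6604 in Atf4WT cold, 288, 260 and 700 in Atf4AKO RT and 366, 142 and 179 in Atf4AKO cold. The B cell sum was high in the 3 Atf4WT cold libraries and in Atf4WT RT replicate 2, and the T cell sum plainly so only in Atf4WT cold replicates 1 and 2. In Atf4WT 7 of 7 B cell and 8 of 8 T cell markers rose in the cold, and 0 were called in Atf4AKO. In limma 0 of 7 and 0 of 8 were called for the difference of cold responses (medians of −4.90 and −4.29) or between genotypes in the cold (−5.70 and −3.72). The 5 listed macrophage markers summed to 21267, 17948 and 24731 in Atf4WT RT and 30137, 16236 and 20598 in Atf4AKO RT. In the cold they summed to 21913, 10680 and 27046 in Atf4WT and 21102, 3619 and 19852 in Atf4AKO. Between genotypes in the cold limma called none of these macrophage markers (median of −0.11). The part of lymphocytes and macrophages in the Cyp4f18 values was not tested.

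**Figure D4:**
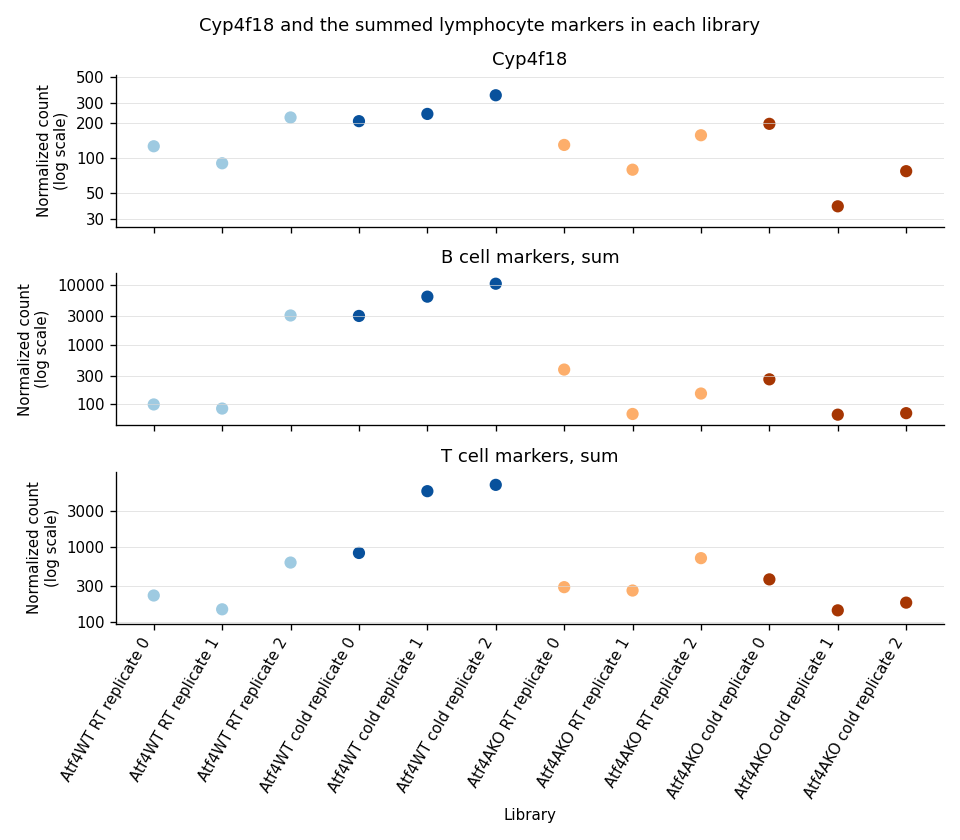
Normalized counts (log axes) of Cyp4f18 and the summed B cell and T cell markers in each of the 12 libraries, coloured by group. The 3 Atf4WT cold libraries are above all Atf4AKO cold libraries in each panel, and Atf4WT RT replicate 2 has a high B cell sum.

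Cyp46a1, the cholesterol hydroxylase of brain, also passed the DEG threshold in the cold, and is named after its values were seen. It was near the filter, with 14.4, 10.6 and 3.77 normalized counts in Atf4WT cold and 27.6, 12.5 and 22.6 in Atf4AKO cold, groups that overlapped. The log2 difference was 1.14 ± 0.48 (SE) with a limma adjusted p of 0.364. For the other members the log2 difference between genotypes ran from −1.01 for Cyp11a1 to 0.65 for Cyp4f39 in the cold.

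Partner genes of the P450 system were counted from lists. Of 9 tested electron donors and membrane partners, 1 rose and 1 fell in Atf4WT and 2 rose in Atf4AKO, where 31.9% and 25.9% of all tested genes were called. Cyb5b, cytochrome b5 of the outer mitochondrial membrane, rose in both, by 0.71 ± 0.14 (SE) and 0.82 ± 0.14 with limma adjusted p of 0.00435 and 0.00245. Por, the electron donor of microsomal P450s, fell in Atf4WT, from 17233 ± 2339 (SD, n = 3) to 12550 ± 960 normalized counts, with a log2 change of −0.45 ± 0.13 (SE) and a limma adjusted p of 0.0229. In Atf4AKO its value was −0.25 ± 0.13 with adjusted p of 0.188, and the difference was 0.20 ± 0.19 with 0.996. Fdx1, the ferredoxin of mitochondrial P450s, rose in Atf4AKO by 0.42 ± 0.11 with a limma adjusted p of 0.0184 and had 0.28 ± 0.11 in Atf4WT with 0.0727, the difference being 0.14 ± 0.16 with 0.996.

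Cyp51, the lanosterol demethylase of cholesterol synthesis, stood at 982, 1428 and 949 normalized counts in Atf4WT RT and 2265, 2054 and 3153 in Atf4WT cold, and at 1265, 1637 and 942 in Atf4AKO RT and 2203, 2739 and 3229 in Atf4AKO cold. Cold and RT libraries did not overlap, and it rose by 1.15 ± 0.24 (SE) and 1.11 ± 0.24, with limma adjusted p of 0.00452 and 0.00666. The P450 genes Tbxas1 and Ptgis, of thromboxane and prostacyclin synthesis, were not called.

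Of 17 tested transcription factors that sense lipids and foreign compounds, 3 rose and 1 fell in Atf4WT (31.9% of all tested genes called) and 4 rose and 1 fell in Atf4AKO (25.9%). Ppara, the fatty acid receptor that controls CYP4 genes in liver, rose by 1.27 ± 0.25 (SE) and 1.74 ± 0.25 with limma adjusted p of 0.00371 and 0.000847. Rxra fell (−0.50 and −0.46) with adjusted p of 0.027 and 0.0451, and Rxrg rose in Atf4AKO by 0.67 with 0.0079, beside 0.40 with 0.0597 in Atf4WT and a difference of 0.27 with 0.989. Nr1i3, the known inducer of Cyp2b10, and Nr1i2, Hnf4a and Nr0b2 were not among the listed genes. Ahr itself averaged 308 normalized counts and was not called.

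Of 16 epoxide hydrolases and conjugating enzymes, 2 rose and 3 fell in Atf4WT (31.9% of all tested genes called), and 3 rose and 3 fell in Atf4AKO (25.9%). Gstt1, a glutathione transferase, fell, with log2 fold changes of −1.54 ± 0.13 (SE) and −1.22 ± 0.13 and limma adjusted p of 5.36e-05 and 0.000195, and Gsta3 rose by 0.88 and 1.30 with 0.0144 and 0.00233. Ephx2, which hydrolyzes fatty acid epoxides made by P450s, rose in Atf4AKO by 0.74 with an adjusted p of 0.0406, and had 0.63 with 0.0612 in Atf4WT and a difference of 0.10 with 0.999. In the list of 12 tested genes of retinoic acid synthesis and response, 2 rose and 2 fell in Atf4WT (31.9% of all tested genes called), and 2 rose and 3 fell in Atf4AKO (25.9%). Dhrs9, a retinol dehydrogenase, rose by 1.79 and 2.48 with limma adjusted p of 0.0138 and 0.00326, Rarb rose by 0.49 and 0.85 with 0.0203 and 0.00156, and Dhrs3, which reduces retinal, fell (−0.76 and −0.43) with 0.000829 and 0.0177.

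Among genes of heme supply and breakdown, Urod, a step of heme synthesis, rose by 0.36 and 0.41 with limma adjusted p of 0.0283 and 0.0196. Cpox, another step, fell in Atf4WT (−0.40) with a limma adjusted p of 0.029, against −0.36 with 0.0526 in Atf4AKO and a difference of 0.042 with 0.999. Of 5 tested sterol and bile acid enzymes outside the family, 1 rose and 1 fell in Atf4WT (31.9% of all tested genes called) and 1 fell in Atf4AKO (25.9%). Star, which carries cholesterol into mitochondria, rose in Atf4WT by 0.66 with 0.0203 and had 0.36 with 0.172 in Atf4AKO and a difference of −0.30 with 0.996, and Hsd3b7 fell (−0.35 and −0.33) with 0.0317 and 0.0454. In the genotype comparisons and the difference of cold responses, limma called 0 genes of these partner lists.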

How the data were processed

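Per the paper's methods, the authors filtered reads with SOAPnuke, mapped them to UCSC mm10 with STAR, counted uniquely mapped reads per gene with featureCounts and normalized them in pyDESeq2; versions were not given in the sources used here. The deposited values are a signal scale, reads divided by a size factor, and 100% of them came out as whole reads within 0.01. Normalized values rather than counts were therefore tested, with limma 3.58.1 in R 4.3.3 (lmFit, eBayes with trend, pseudocount 1, mean of at least 10), all 4 groups in the model, in 5 comparisons. Recovered reads were tested with edgeR 4.0.16 and DESeq2 1.42.0 as alternatives, and edgeR called 4307 and 3464 and DESeq2 4795 and 4011 genes in the cold in Atf4WT and Atf4AKO. The code was tested on simulated data. Other alternatives were pseudocounts of 0.5 and 5, no filter or one at 50, scaling to the 75th percentile, only the compared groups, a replicate block, the DEG threshold, and each library left out.

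Named in full were up to 12 members called in a cold comparison with a fold over 1.5 and a mean of at least 50, the 5 highest per kb, and up to 6 with a mean of at least 50 past the DEG threshold between genotypes or in the difference; of partner lists, up to 3 of the largest called in cold. Exon lengths and positions came from GENCODE M21, windows from RefSeq. The members and lists were chosen with earlier results of these data known. The limma p-values rest on the spread between libraries within groups of 3, pooled over all 4 groups and drawn toward a trend over all genes. A call in 1 genotype can therefore change when a library of the other genotype is left out.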

Additional observations from a re-analysis of the deposited data

How the results depend on the processing

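Among 32 fold changes of named members under 24 alternatives, 712 of 768 values kept direction and side of the threshold, 25 lost the call, 16 gained it and 15 changed sign. The unadjusted DEG threshold was among these alternatives. Members passing ranged from 5 to 9 for cold in Atf4WT, where the 9 came from the DEG threshold (5 to 7 with single libraries left out). They ranged from 3 to 8 for cold in Atf4AKO (3 to 7 with single libraries left out, lowest without Atf4AKO RT replicate 0 or 1, where 2208 and 2719 genes were called in all). Of all 13404 tested genes, 2846 to 4858 passed for cold in Atf4WT and 2208 to 4129 in Atf4AKO over the same alternatives. At the DEG threshold 2 members passed between genotypes in the cold (858 genes) and 2 in the difference of cold responses (621 genes). Between genotypes in the cold, all called genes went from 4 to 591 with DESeq2, 515 without Atf4WT cold replicate 0 and 146 without Atf4WT RT replicate 2, and in the difference from 0 to 128 with DESeq2 and 64 without Atf4WT cold replicate 0, with 0 members in each. Sign changes were all in values that were not called. With single libraries left out, ranges were −0.097 to 0.31 for Cyp2d22 and −0.061 to 0.22 for Cyp2e1 in Atf4WT, −0.28 to 0.32 for Cyp2e1, −0.14 to 0.50 for Cyp2f2 and −1.09 to 0.070 for Cyp4f18 in Atf4AKO, and −1.04 to 0.31 for the difference in Cyp2b10. Cyp2e1 in Atf4AKO was −0.0076 with edgeR and −0.0063 with DESeq2. Alternatives chosen after seeing the data left out both cold replicates 1 (lowest stroma and macrophage sums), giving −0.097 for Cyp2d22 and −0.061 for Cyp2e1 in Atf4WT, 0.070 for Cyp4f18 in Atf4AKO and 0.039 for the difference in Cyp2b10, or the muscle-rich libraries (Atf4WT RT replicate 2, Atf4WT cold replicate 0, Atf4AKO cold replicate 1), giving 0.070 for Cyp4f18 in Atf4AKO. The cause was not tested. These alternatives gave 6 and 7 called members for cold in Atf4WT and 7 and 5 in Atf4AKO. Such counts are to be read beside the ranges over all tested genes given above. The labels do not say that replicate numbers pair the samples. Of 18 pairs with the same number, 8 had a correlation of deviations over 0.1 (−0.19 to 0.39), among them all 6 pairs of replicate 1 (0.18 to 0.39), and 4 libraries correlated best with their own number. With the replicate block, 7 members were called for cold in Atf4WT, with Cyp4f14 (−1.54, limma adjusted p of 0.0444) gained. In Atf4AKO 8 were called, with Cyp4b1 (0.69, 0.0218) and Cyp4f39 (−1.11, 0.031) gained. The same ranges over all tested genes apply to these counts. All genes called between genotypes in the cold went from 4 to 189.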

Other observations

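Of 6 skeletal muscle markers 4 were listed, without Ckm and Myh4 and with Acta1 the most abundant, and their summed normalized counts were 437, 840 and 71116 in Atf4WT RT, 25612, 129 and 182 in Atf4WT cold, 178, 122 and 327 in Atf4AKO RT and 65.9, 2681 and 74.1 in Atf4AKO cold. Atf4WT RT replicate 2, Atf4WT cold replicate 0 and Atf4AKO cold replicate 1 thus stood above the rest of their groups, and their part in the P450 values was not tested.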
